A study of Mus musculus with 6 samples.

Results

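The genes described here write, copy and remove DNA methylation: the DNA methyltransferases Dnmt1, Dnmt3a and Dnmt3b, the methyltransferase cofactor Dnmt3l, the maintenance factor Uhrf1, and the dioxygenases Tet1, Tet2 and Tet3. They were chosen by symbol. All 8 had a row in each of the 6 count files, of 17485 rows in all, and all 8 passed the filter on low counts that left 12755 genes to test. The RNA came from E14 cells, a mouse embryonic stem cell line derived from the 129/Ola strain, kept pluripotent in serum with leukaemia inhibitory factor. From 24 h after seeding, the treated groups were given 250 µg/mL of cycloheximide, which blocks translation elongation, for 3 h or for 6 h (vehicle 0.007% ethanol). Control cells received ethanol alone for 9 h, so the effect of the drug and that of the length of exposure cannot be told apart. Each of the 3 groups had 2 libraries, and nothing in the labels says that these came from separate cultures, so the p-values measure the spread between these libraries, which may be technical.

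Methyl groups on cytosine in CpG dinucleotides are placed on unmethylated DNA by Dnmt3a and Dnmt3b, which Dnmt3l, a relative without catalytic activity, binds and stimulates. After replication Uhrf1 recognises the half-methylated site and brings in Dnmt1 to copy the mark to the new strand. TET enzymes oxidise 5-methylcytosine, which leads to its loss through replication or base excision repair, and embryonic stem cells are known for high Tet1 expression and for carrying both arms of the system at once.

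Library totals were 9385447 to 15423587 counts in control, 15297359 to 16760304 at 3 h and 23121225 to 27351079 at 6 h. The mitochondrial share of counts was 24.7% and 24.9% in the ethanol libraries, 19.6% and 18.9% after 3 h and 17.4% and 16.6% after 6 h, and the library scaling factors (trimmed mean of M values, TMM) ranged from 0.872 in a control library to 1.13 in a 6 h library. All 9 listed embryonic stem cell markers were tested. In CPM, the count scaled to a common library total after TMM, they summed to 6784 and 6951 with ethanol, 7885 and 8151 after 3 h, and 5660 and 5480 after 6 h, so that both 6 h libraries were lowest. These markers did not move together. At 3 h Sox2 rose from 2282 and 2602 CPM to 3849 and 3958 CPM, while Zfp42 fell from 727 and 676 CPM to 638 and 595 CPM. At 6 h Sox2, Klf4 and Esrrb overlapped the controls, and the other markers lay below them. The summed level of 6 primitive endoderm markers was 41.2 to 53.9 CPM in control, 50.1 to 50.9 CPM at 3 h and 17.3 to 19.8 CPM at 6 h. That fall lay in Sox7, at 48.5 and 33.6 CPM in control and 5.05 and 5.63 CPM at 6 h. Gata4, Sox17, Dab2 and Pdgfra were higher in both 6 h libraries than in both controls, and Gata6 overlapped. The markers of trophectoderm, mesoderm and fibroblasts summed to at most 17.6 CPM in each library, and those of neuroectoderm, mainly Sox1, to between 61.3 and 116 CPM. The trophectoderm marker Cdx2 held at most 3 counts in every library. In bulk libraries fewer cells of a type and less RNA per cell cannot be told apart, and the part of these shifts in the results below was not tested.

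Promoter sequences are shown for the 2 genes whose RNA was called lower at 6 h, Dnmt3b and Tet2, and for the maintenance pair Dnmt1 and Uhrf1, whose RNA stayed in a narrow ratio. Each window covers 250 bases before to 50 bases after a RefSeq start site in the GRCm38.p6 assembly, the same assembly as the mm10 build that the submitters' processing notes name. These 4 of the windows for the 8 genes are printed 5′ to 3′, with capitals marking matches on either strand to 4 motif groups: the E2F words TTTCCCGC, TTTGGCGC, TTTCGCGC and TTTGCCGC, the GC box GGGCGGG, the CCAAT box and the octamer ATTTGCAT.
Dnmt3b, chr2:153649199-153649498, plus strand: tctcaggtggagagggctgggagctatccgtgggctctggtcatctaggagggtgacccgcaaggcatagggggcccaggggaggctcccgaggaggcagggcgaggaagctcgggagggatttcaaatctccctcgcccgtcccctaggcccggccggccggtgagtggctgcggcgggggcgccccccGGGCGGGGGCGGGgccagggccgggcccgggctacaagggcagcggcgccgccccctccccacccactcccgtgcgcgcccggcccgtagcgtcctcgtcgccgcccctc
Tet2, chr3:133544341-133544640, minus strand: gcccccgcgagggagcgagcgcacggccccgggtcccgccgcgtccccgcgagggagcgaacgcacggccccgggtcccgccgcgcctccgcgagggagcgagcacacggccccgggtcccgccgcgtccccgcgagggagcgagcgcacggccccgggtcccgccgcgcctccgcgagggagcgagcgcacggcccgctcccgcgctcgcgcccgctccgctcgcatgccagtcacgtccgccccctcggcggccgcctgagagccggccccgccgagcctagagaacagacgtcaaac
Dnmt1, chr9:20952574-20952873, minus strand: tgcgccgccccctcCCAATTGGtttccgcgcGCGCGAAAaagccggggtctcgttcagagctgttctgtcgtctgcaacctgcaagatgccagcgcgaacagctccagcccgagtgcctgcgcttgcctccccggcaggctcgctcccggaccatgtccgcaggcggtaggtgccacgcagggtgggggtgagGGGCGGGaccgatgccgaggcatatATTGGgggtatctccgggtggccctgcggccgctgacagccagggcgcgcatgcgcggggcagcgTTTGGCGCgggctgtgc
Uhrf1, chr17:56304063-56304362, plus strand: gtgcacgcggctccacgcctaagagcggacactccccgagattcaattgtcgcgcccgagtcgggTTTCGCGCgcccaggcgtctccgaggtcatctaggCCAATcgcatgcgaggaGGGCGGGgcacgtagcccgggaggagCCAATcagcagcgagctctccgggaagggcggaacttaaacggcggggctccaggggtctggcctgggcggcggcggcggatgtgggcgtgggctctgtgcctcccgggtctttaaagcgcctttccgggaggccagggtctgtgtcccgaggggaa

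The windows differed in their content of CpG dinucleotides, the substrate of these enzymes. The Tet2 window held 57 CpG, more than 99.8% of 32851 RefSeq windows of the same length, whose median was 7. The Dnmt3b window held 30, and the printed Dnmt1 and Uhrf1 windows held 33 each. The 2 Dnmt3a windows at its upstream starts held 46 and 47, while the 3 Dnmt3l windows held 3 to 6. E2F words, matched in 2.26% of all windows, were found in the printed windows of Dnmt1 (2 matches) and Uhrf1 (1 match) and in no other window of the 8 genes. The start site of that Dnmt1 window lies 356 bases downstream of the nearest start of a principal transcript in GENCODE M21, and that of the Uhrf1 window 35 bases from one. A Dnmt1 window that is not printed has its start site at that principal start and held no match to any of the 4 groups. The Uhrf1 window that is not printed lies 16 bases from a principal start and held no E2F word. The GC box (25.6% of all windows) was present at 2 positions in the Dnmt3b window and absent from the Tet2 window, which held no match to any of the 4 groups. The CCAAT box (37.4% of all windows) had 3 matches in the printed Dnmt1 window and 2 in that of Uhrf1. No match overlapped one of another group. The octamer (1.74% of all windows) was in none of them. These are letter matches in a window, with no binding measured.

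In control cells the 8 genes covered a wide range of levels. Per kilobase of exon sequence (the union of exons in GENCODE M21, which may not be the annotation the authors counted with), Dnmt3l stood at 43.0 ± 0.158 CPM per kb, Dnmt1 at 41.9 ± 2.35 and Uhrf1 at 39.2 ± 2.55 (SD, n = 2). Dnmt3l and Dnmt1 overlapped between libraries, as did Dnmt1 and Uhrf1. Tet1 followed at 23.5 ± 6.08 CPM per kb, Dnmt3b at 14.4 ± 3.02, Dnmt3a at 4.82 ± 0.354, Tet2 at 2.17 ± 0.0619 and Tet3 at 1.22 ± 0.103 (SD, n = 2), with no overlap between neighbours from Uhrf1 down. Whether the counts scale with transcript length is not given in the sources used here. Without the division by length, Tet1 had the highest mean and Tet3 the lowest of the 8. Tet1, at 429 and 296 CPM, overlapped Dnmt1, at 297 and 321 CPM, which was higher in control replicate 2.

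**Figure D1:**
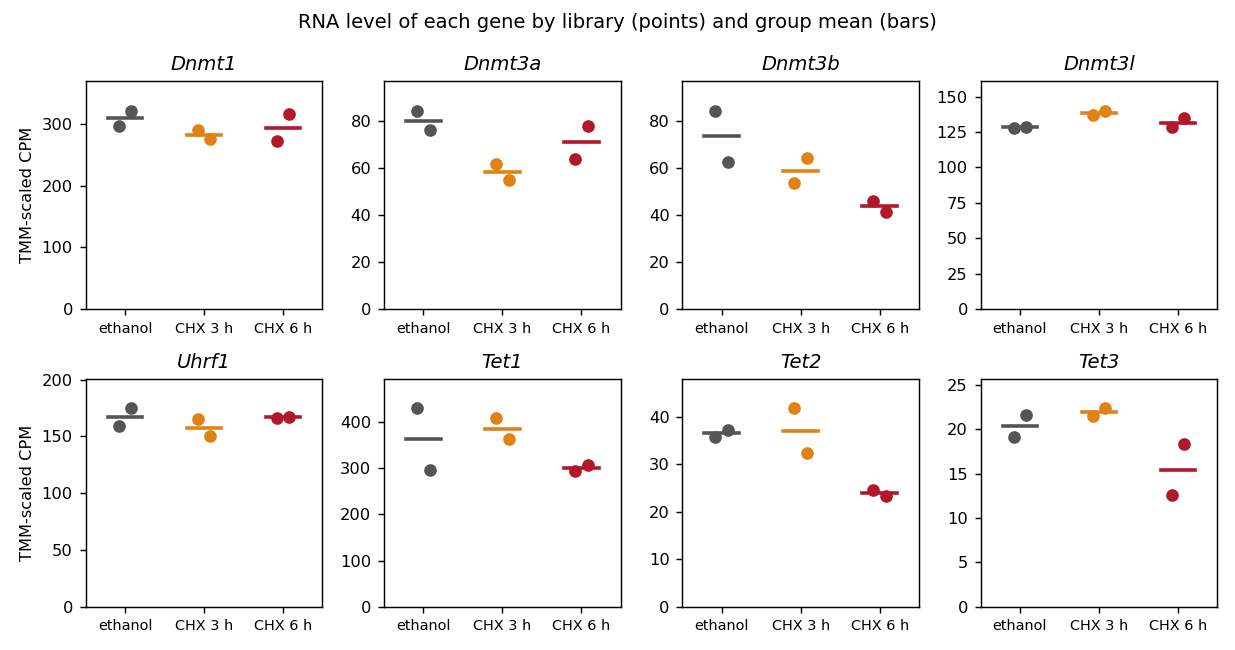
Level of each gene in TMM-scaled CPM (vertical axis, from 0) in each of the 6 libraries (points) with the mean of each group (bars), for ethanol controls and for 3 h and 6 h of cycloheximide (CHX). Dnmt3b, Tet2 and Tet3 are lowest in both 6 h libraries, while Dnmt1, Dnmt3l and Uhrf1 stay at similar levels in all groups.

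The maintenance genes are described first. Dnmt1 (ENSMUSG00000004099.16, chr9:20907209-20959888, minus strand, GRCm38) copies methylation onto newly made DNA. It stood at 297 and 321 CPM in the controls, 290 and 275 CPM after 3 h, and 273 and 315 CPM after 6 h. The 3 h libraries lay just below the controls, and those at 6 h spanned them. The log2 fold change was -0.13 ± 0.11 (SE) at 3 h and -0.07 ± 0.11 (SE) at 6 h (edgeR adjusted p = 0.518 and 0.675). The 95% interval at 6 h ran from -0.33 to 0.19, so with 2 libraries a group any change within that range remained compatible with the data.

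Uhrf1 (ENSMUSG00000001228.14, chr17:56303321-56323486, plus strand) reads half-methylated sites for Dnmt1. Its level was 159 and 175 CPM in the controls, 165 and 150 CPM after 3 h, and 167 and 167 CPM after 6 h. The groups overlapped against control at both times. The log2 fold change was -0.08 ± 0.11 (SE) at 3 h and 0.00083 ± 0.11 (SE) at 6 h, with a 95% interval at 6 h from -0.25 to 0.26 (edgeR adjusted p = 0.696 and 0.997). The ratio of Uhrf1 to Dnmt1 counts, which does not depend on how libraries are scaled, was 0.537 and 0.544 in the controls, 0.569 and 0.546 after 3 h, and 0.611 and 0.530 after 6 h. It thus stayed between 0.530 and 0.611 in libraries of 9385447 to 27351079 total counts.

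Among the de novo enzymes, Dnmt3b was called lower at 6 h. Dnmt3b (ENSMUSG00000027478.15, chr2:153649450-153687730, plus strand) is a main de novo methyltransferase of pluripotent cells. It stood at 84.3 and 62.4 CPM in the controls, 53.5 and 64.1 CPM after 3 h, and 45.8 and 41.4 CPM after 6 h. Both 6 h libraries lay below every other library, while control and 3 h overlapped. Against control the log2 fold change was -0.32 ± 0.17 (SE) at 3 h (edgeR adjusted p = 0.291) and -0.75 ± 0.17 (SE) at 6 h (edgeR adjusted p = 0.0144), a fall to 0.593 of the control level with a 95% interval from -1.15 to -0.35 on the log2 scale. Between 6 h and 3 h it was -0.43 ± 0.17 (SE), which did not pass (edgeR adjusted p = 0.236). The call at 6 h was lost without control replicate 1 (-0.52, edgeR adjusted p = 0.055), without 6 h replicate 1 (-0.83, edgeR adjusted p = 0.0543) and without 6 h replicate 2 (-0.68, edgeR adjusted p = 0.1).

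Dnmt3a (ENSMUSG00000020661.15, chr12:3806007-3914443, plus strand), the second de novo enzyme, followed another course. Its level was 84.3 and 76 CPM in the controls, 61.8 and 54.8 CPM after 3 h, and 63.9 and 77.9 CPM after 6 h. Both 3 h libraries were below all the others, and the 6 h libraries overlapped the controls. The log2 fold change was -0.46 ± 0.15 (SE) at 3 h with a 95% interval from -0.80 to -0.12, and its unadjusted p of 0.0133 (edgeR) became 0.104 after adjustment over all genes. DESeq2 (-0.48, adjusted p = 0.0416) and an edgeR fit without the low-count filter (-0.46, adjusted p = 0.0495) called it. At 6 h the log2 fold change was -0.18 ± 0.15 (SE; edgeR adjusted p = 0.394). The change from 3 h to 6 h was 0.28 ± 0.15 (SE; edgeR adjusted p = 0.354).

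Dnmt3l (ENSMUSG00000000730.13, chr10:78041947-78063622, plus strand), the cofactor of both de novo enzymes, varied least between control libraries. It held 128 and 129 CPM in the controls, 137 and 140 CPM after 3 h, and 128 and 135 CPM after 6 h. The 3 h libraries were above the other 4, by little. The log2 fold change was 0.11 ± 0.11 (SE) at 3 h and 0.03 ± 0.11 (SE) at 6 h (edgeR adjusted p = 0.567 and 0.843), with a 95% interval at 6 h from -0.21 to 0.28. Dnmt3l overlaps Aire on the opposite strand in GENCODE M21. The Aire row held 31 to 112 counts against 1054 to 3885 for Dnmt3l, and whether counting used strand is not given in the sources used here. The other genes that overlap a member had either no row or, for Tet3, a row with at most 1 count.

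Ratios within a library set these courses against each other. Dnmt3b to Dnmt3a counts stood at 0.999 and 0.822 in the controls, 0.866 and 1.17 after 3 h, and 0.717 and 0.532 after 6 h. Dnmt3b thus made up 50% and 45.1% of the 2 genes' counts in control and 41.8% and 34.7% at 6 h. The ratio of Dnmt3l to Dnmt3b was 1.52 and 2.06 in the controls, 2.56 and 2.18 after 3 h, and 2.80 and 3.25 after 6 h. Every treated library was above both controls, and the 6 h libraries were above those at 3 h. The mean log2 ratio rose by 0.42 from control to 3 h and by 0.77 from control to 6 h. The ratios are given as a description, with no test.

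**Figure D2:**
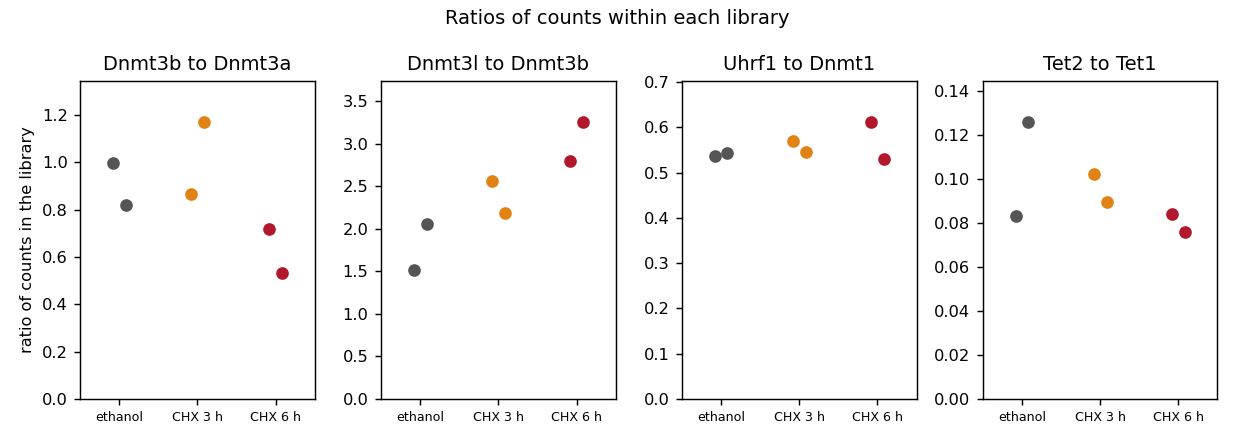
Ratio of the counts of 2 genes within each library (vertical axis, from 0; no unit) for the 3 groups, 1 point per library. Dnmt3b to Dnmt3a is lowest in the 6 h libraries, at 0.717 and 0.532, Dnmt3l to Dnmt3b is highest there, and Uhrf1 to Dnmt1 stays between 0.530 and 0.611.

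Of the TET enzymes, Tet2 was called lower at 6 h. Tet2 (ENSMUSG00000040943.12, chr3:133463679-133545139, minus strand) oxidises 5-methylcytosine and lacks the CXXC domain through which Tet1 and Tet3 bind CpG-rich DNA. It stood at 35.8 and 37.3 CPM in the controls, 41.8 and 32.5 CPM after 3 h, and 24.7 and 23.3 CPM after 6 h. The 6 h libraries were below all others, and the 3 h libraries lay on either side of the controls. The log2 fold change was 0.02 ± 0.16 (SE) at 3 h (edgeR adjusted p = 0.949) and -0.60 ± 0.16 (SE) at 6 h (edgeR adjusted p = 0.0247), a fall to 0.658 of the control level with a 95% interval from -0.97 to -0.23 on the log2 scale. Between 6 h and 3 h the change of -0.63 ± 0.16 (SE) missed the threshold in edgeR (adjusted p = 0.0957) and passed it in DESeq2 (-0.62, adjusted p = 0.0319) and in edgeR without the low-count filter (-0.62, adjusted p = 0.0183). The call against control was lost without control replicate 2 (-0.57, edgeR adjusted p = 0.0624), without 6 h replicate 1 (-0.65, edgeR adjusted p = 0.0948) and without 6 h replicate 2 (-0.56, edgeR adjusted p = 0.141).

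Tet1 (ENSMUSG00000047146.17, chr10:62804570-62908996, minus strand) held 83.4% to 88.7% of the counts of the TET genes in every library. Its level was 429 and 296 CPM in the controls, 408 and 363 CPM after 3 h, and 293 and 308 CPM after 6 h. The control libraries lay farther apart than the highest and the lowest treated library, and the 6 h libraries were below both 3 h libraries. Against control the log2 fold change was 0.09 ± 0.17 (SE) at 3 h and -0.27 ± 0.17 (SE) at 6 h (edgeR adjusted p = 0.793 and 0.249). The 6 h value rested on the control libraries: it was 0.02 without control replicate 1 and -0.51 without control replicate 2, where it passed (edgeR adjusted p = 0.0205). From 3 h to 6 h it was -0.36 ± 0.17 (SE; edgeR adjusted p = 0.299).

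Tet3 (ENSMUSG00000034832.15, chr6:83362373-83459084, minus strand), known for oxidising the paternal genome in the zygote, was the least abundant member, with 177 to 478 counts a library. It stood at 19.2 and 21.6 CPM in the controls, 21.5 and 22.4 CPM after 3 h, and 12.6 and 18.3 CPM after 6 h. The 6 h libraries were below all others. The log2 fold change was 0.11 ± 0.21 (SE) at 3 h and -0.40 ± 0.21 (SE) at 6 h (edgeR adjusted p = 0.793 and 0.184), and -0.51 ± 0.20 (SE) between 6 h and 3 h (edgeR adjusted p = 0.236). For each TET gene both 6 h libraries thus lay below both 3 h libraries, as they did for 26.9% of all genes tested. None of these differences was called in the main fit. Within a library, the ratio of Tet2 to Tet1 counts was 0.0834 and 0.126 in the controls, 0.103 and 0.0895 after 3 h, and 0.0842 and 0.0759 after 6 h, and that of Tet3 to Tet1 was 0.0430 to 0.0730 over all libraries. The summed counts of Dnmt1, Dnmt3a and Dnmt3b over those of the TET genes were 0.961 and 1.29 in the controls, 0.861 and 0.943 after 3 h, and 1.16 and 1.24 after 6 h.

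**Figure D3:**
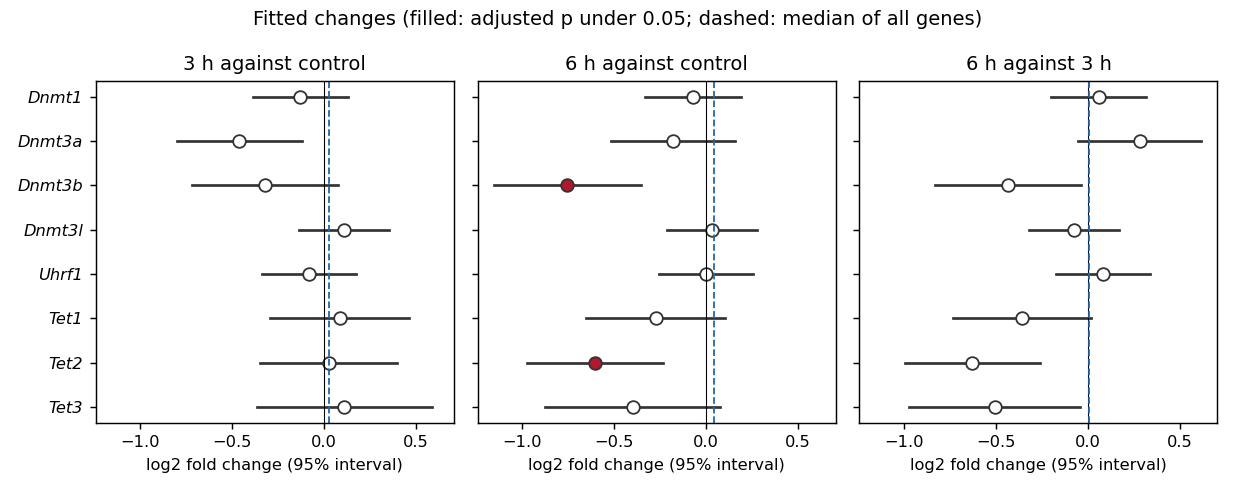
Fitted log2 fold change (horizontal axis) of each gene in the 3 comparisons, with 95% intervals from the edgeR fit, filled red points for an adjusted p under 0.05 and a dashed line at the median of all genes tested. Only Dnmt3b (-0.75) and Tet2 (-0.60) at 6 h against control are filled.

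Counted together, 0 of the 8 genes were called at 3 h against control (edgeR quasi-likelihood test, adjusted p under 0.05), where 4.90% of 12755 genes were called, 3.60% higher and 1.30% lower. At an unadjusted p under 0.05 there was 1 (Dnmt3a), DESeq2 called 1, and limma-voom and limma-trend called 0. At 6 h against control 2 of 8 were called, both lower, beside 29.0% of all genes in either direction, 14.8% higher and 14.3% lower, so that the members' share was near the background. Between 6 h and 3 h 0 of 8 were called beside 1.64% of all genes (0.455% higher, 1.18% lower), with 3 at an unadjusted p under 0.05 (Dnmt3b, Tet2 and Tet3), 1 called by DESeq2 (Tet2), and 0 by limma-voom and limma-trend. The libraries of the groups did not overlap for 3 members at 3 h against control (1 higher, 2 lower), beside 53.2% of all genes (28.4% higher, 24.8% lower). At 6 h against control there were 3 such members, all lower (Dnmt3b, Tet2 and Tet3), beside 66.8% of all genes (35.7% higher, 31.2% lower). Between 6 h and 3 h there were 7, all but Dnmt1 (2 higher, 5 lower), beside 54.1% of all genes (27.2% higher, 26.9% lower).

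The median log2 fold change of the 8 genes was -0.03 at 3 h and -0.23 at 6 h against control, beside 0.02 and 0.04 over all genes tested. At 6 h the members ran from Dnmt3b, with 8.96% of tested genes below it, to Dnmt3l, with 49.5% below it. Both comparisons use the same control libraries. The direction of the smaller changes depended on the scaling. With library size alone, the median of all genes at 6 h moved from 0.04 to 0.40 and the share of calls that were higher from 50.8% to 88.2%. The same step moved that share from 73.4% to 95.8% at 3 h and from 27.8% to 56.5% between 6 h and 3 h. On that scale Dnmt3l (0.39, edgeR adjusted p = 0.0253) and Uhrf1 (0.36, edgeR adjusted p = 0.0367) were called higher at 6 h, close to the median of all genes, while Dnmt3b (-0.40, edgeR adjusted p = 0.118) and Tet2 (-0.25, edgeR adjusted p = 0.258) kept a negative sign without passing.

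**Figure D4:**
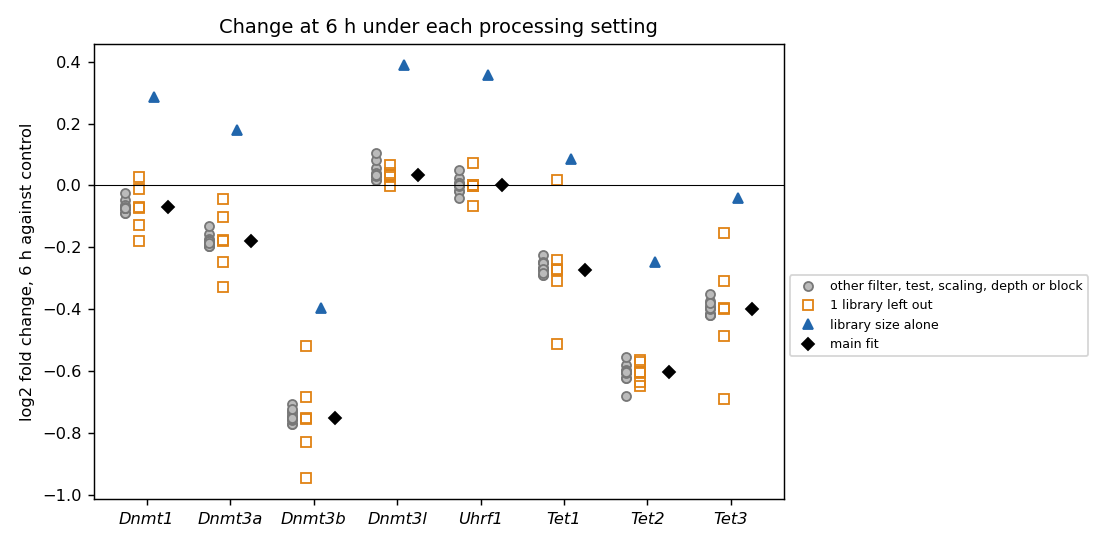
Log2 fold change at 6 h against control (vertical axis) of each gene under the main fit (black diamonds), library size alone (blue triangles), each library left out in turn (open orange squares) and the other settings (grey circles). Library size alone gives the highest value of every gene, and Dnmt3b, Tet2 and Tet3 stay below 0 under all settings shown.

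The genes whose profile over the 6 libraries was most like that of each member were found by the root mean square difference of log2 CPM, each gene centred on its own mean, among 6942 genes with a mean of at least 10 CPM. For Dnmt3b these were Rad54l and Thop1, at 0.08 log2 units each, with log2 fold changes at 6 h of -0.66 and -0.78. The Tet2 profile was nearest to Ube2l6 and Dazap2 (0.05 and 0.06). Dnmt1 was nearest to Taf7 and Cdc26 (0.03 each), Uhrf1 to Acad9 and Nnt (0.03 and 0.04), Dnmt3l to Nt5c2 and Rfk (0.03 each), Dnmt3a to Ostf1 and Ddx10 (0.06 and 0.07), Tet1 to Kctd15 and Srrm2 (0.05 and 0.06) and Tet3 to Fzd10 and Plekhm1 (0.05 and 0.06). No member was among the candidates for another.

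Partners of these enzymes moved in both directions. Of 7 tested maintenance partners, 2 rose and 1 fell at 6 h: Cdca7, which targets the remodeller Hells, rose by 0.59 on the log2 scale (edgeR adjusted p = 0.00722), Uhrf2 by 0.79 (edgeR adjusted p = 0.0079), and the replication clamp Pcna fell by 0.49 (edgeR adjusted p = 0.00422). Hells itself had 0.18 (edgeR adjusted p = 0.262), and passed as higher (0.53, edgeR adjusted p = 0.00762) when scaled by library size alone. Of 7 genes that supply the methyl donor, 2 rose and 2 fell. Mat2a, which makes S-adenosylmethionine, the donor of all DNA methyltransferases, fell from 617 ± 232 CPM in control to 173 ± 0.183 CPM at 6 h (SD, n = 2). On the log2 scale this was -1.84 ± 0.22 (SE; edgeR adjusted p = 0.0011). It was also lower at 6 h than at 3 h (-1.58 ± 0.22, SE; edgeR adjusted p = 0.0135). Ahcy, which clears the product of methylation, fell by 0.65 (edgeR adjusted p = 0.00461) and its relative Ahcyl2 rose by 0.96 (edgeR adjusted p = 0.00344). The calls of Mat2a, Ahcyl2 and Cdca7 at 6 h held under every alternative tried, with Mat2a at -1.39 without control replicate 1 and -2.17 without control replicate 2. That of Mat2a between the times was lost without any 1 of the 3 h or 6 h libraries (-1.64 to -1.52, edgeR adjusted p = 0.0965 to 0.154), that of Uhrf2 without 6 h replicate 2 (0.69, edgeR adjusted p = 0.068), and those of Pcna (-0.13, edgeR adjusted p = 0.235) and Ahcy (-0.29, edgeR adjusted p = 0.0746) with library size alone.

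Among 15 tested genes of active demethylation and TET partners, 4 fell and 0 rose at 6 h. Ogt, a sugar transferase that binds TET proteins, had a log2 fold change of -0.78 (edgeR adjusted p = 0.00984), Idh1, which makes the cosubstrate 2-oxoglutarate, -0.64 (edgeR adjusted p = 0.00804), and the repair factor Parp1 -0.50 (edgeR adjusted p = 0.015). The median of that list was 0.32, above the 0.04 of all genes. With library size alone these 3 kept their sign and lost their call, at -0.42, -0.28 and -0.14 (edgeR adjusted p = 0.088, 0.117 and 0.392). Each also lost its call without 6 h replicate 2, Ogt and Parp1 without 6 h replicate 1, and Parp1 without control replicate 2, at values from -0.81 to -0.43 (edgeR adjusted p = 0.0534 to 0.0951). Of 9 methyl-CpG readers 1 was called, Zbtb38, whose 23 and 3 counts with ethanol became 173 and 246 at 6 h, a rise of 2.73 on the log2 scale (edgeR adjusted p = 0.00759) that missed the threshold without 6 h replicate 2 (2.35, edgeR adjusted p = 0.0591). Its size rested on the controls, at 4.34 without control replicate 1 and 2.15 without control replicate 2. Zbtb38 passed the low-count filter only through the treated libraries, where it was high, so its p is no independent support. Of 15 tested genes that target or oppose methylation, 3 fell and 2 rose. Trim28, the corepressor that maintains imprints, had -0.67 (edgeR adjusted p = 0.00686) and the histone methyltransferase Ehmt2 -0.69 (edgeR adjusted p = 0.0093). Zfp57 and Prdm14 had 0.36 and 0.38 (edgeR adjusted p = 0.343 and 0.264). Trim28 and Ehmt2 were not called with library size alone (-0.32 and -0.33, edgeR adjusted p = 0.078 and 0.0999), nor was Ehmt2 without 6 h replicate 2 (-0.62, edgeR adjusted p = 0.0835), while Prdm14 was called with library size alone (0.74, edgeR adjusted p = 0.0447). The Prdm14 value turned on the controls, at 0.74 without control replicate 2 (edgeR adjusted p = 0.0415) and 0.057 without control replicate 1 (edgeR adjusted p = 0.868). Dppa3, a maternal factor that keeps Uhrf1 off chromatin, held 0 counts in both control libraries and 55 and 41 counts at 6 h. That was at least 12.3-fold higher than a floor of 3 counts over the control group (edgeR adjusted p = 0.00697). It passed the low-count filter only through the 6 h libraries, where it was high, so that p is no independent support. At a mean of 1.69 CPM at 6 h, Dppa3 did not pass a filter of 5 CPM. Without either 6 h library its adjusted p was 0.0549 or 0.0518 (edgeR). The counts called at 6 h in these 5 lists, 3 of 7, 4 of 7, 4 of 15, 1 of 9 and 5 of 15, stand beside the 29.0% of all genes. At 3 h against control 0 genes of these lists were called, beside 4.90% of all genes.

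**Figure D5:**
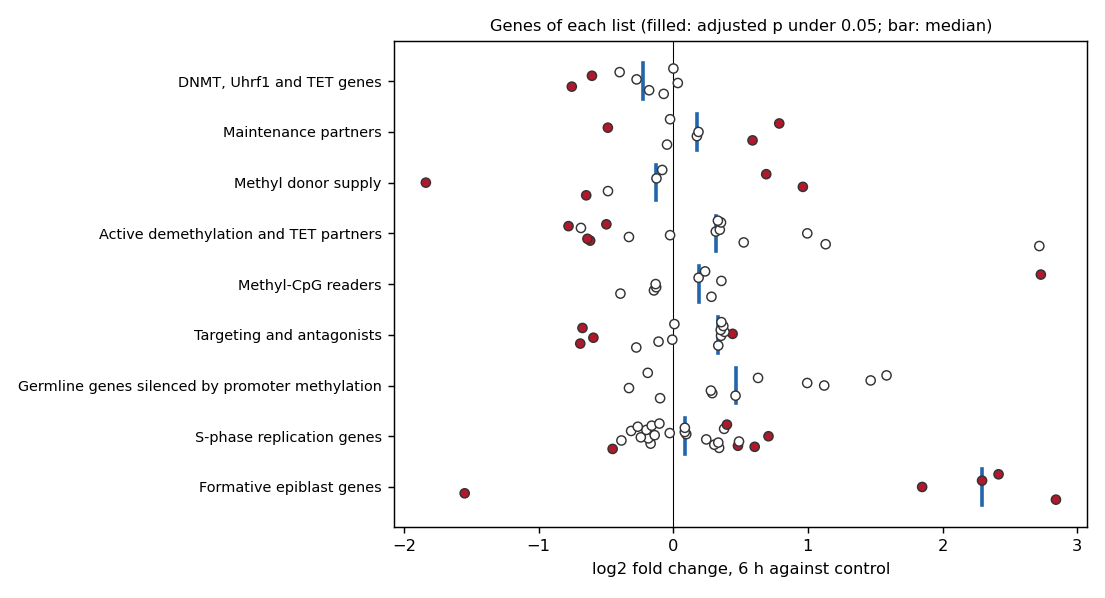
Log2 fold change at 6 h against control (horizontal axis) of every tested gene in each list (points), filled where the adjusted p was under 0.05, with the list's median as a bar; Dppa3 is not drawn because its controls held 0 counts. The 8 methylation enzymes and cofactors lie between -0.75 and 0.03, while Mat2a in the methyl donor list stands at -1.84.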

How the data were processed

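The authors deposited raw counts per gene, 1 file per library, and per the submitters' processing notes the genome build was mm10. Per the labels' protocols, polyadenylated RNA received a barcode per sample before pooled sequencing. The aligner, counting program, annotation, strand setting and any use of molecular identifiers are not given in the sources used here. The design text mentions single cells while the title says bulk, and each file was read as 1 bulk library. Groups and replicate numbers came from the sample titles.

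Genes were tested with edgeR 4.0.16 (R 4.3.3): genes kept by filterByExpr (minimum count 10, minimum total 15), TMM scaling, and the quasi-likelihood F test fitted to the 3 group means of the 6 libraries without a block (3 residual degrees of freedom). Two-sided p-values were adjusted by the Benjamini-Hochberg method over all 12755 genes within a comparison, and an adjusted p under 0.05 was called. SE values are the log2 fold change over the square root of F. Replicates differed beyond counting noise, at a chi-square of 18.7 to 27.7 per degree of freedom. The fit was tested on simulated data, where its slope was near the true one and false calls were somewhat more frequent than the rate aimed at. Counts limit precision: 3 counts, the floor for detection, equal 0.11 to 0.32 CPM by library, for counting error only.

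Alternatives covered 3 scalings, 2 filters, DESeq2 1.42.0, limma 3.58.1 (voom and trend), a replicate block, fits to 4 libraries, removal of mitochondrial genes, thinning to 9385447 counts and leaving out each library. Named genes were all members, the called genes with the 3 smallest p at 6 h in each other list, 8 fixed partners where tested, and the 2 nearest profiles. Members, lists and rules were chosen with earlier results of these data known. Symbols Pclaf, Nsd2 and Kmt2a were matched through older names in the RefSeq table (GRCm38.p6). Tdg, one of the fixed partners, did not pass the filter. All 8 members matched the RefSeq promoter table.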

Additional observations from a re-analysis of the deposited data

Results flagged for a closer look

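Between 6 h and 3 h of cycloheximide, 209 of 12755 genes differed by a direct test of one time against the other (edgeR, adjusted p under 0.05). Of these, 58 were higher in the later group and 151 lower. None of the 8 methylation genes was among them, with 3 at an unadjusted p under 0.05 and 1 called by DESeq2. Mat2a was the one gene of the 5 partner lists that was, at a log2 fold change of -1.58, and it was no longer called without any 1 of the 3 h or 6 h libraries (-1.64 to -1.52). With 1 library left out, 14 to 595 genes were called. The 6 h libraries were the deepest, and thinning to the smallest library gave 228 genes.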

How the results depend on the processing

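The count of genes called at 3 h against control was 625, and became 1373 with library size alone, 1816 without the low-count filter, 1447 with DESeq2 and 218 with only the 4 libraries compared. Leaving out 1 library gave 108 to 1033. At 6 h against control 3703 were called, and leaving out 1 library gave 1312 to 3578. Between 6 h and 3 h 209 were called, against 1063 without the filter, 688 with DESeq2, 508 with limma-voom, 563 with 4 libraries and 14 to 595 with 1 library left out. Where a group was left with 1 library, it was assumed to vary like the others. The count of members called at 3 h was 0 and became 1 without the filter and with DESeq2, as did that between 6 h and 3 h, and leaving out 1 library gave 0 in both. At 6 h it was 2, and 0 to 2 with 1 library left out.

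With the replicate block, 426, 3550 and 126 genes were called in the 3 comparisons, and 0, 2 and 0 members. The correlation of replicate deviations between groups was 0.08, -0.02 and 0.02, which gave no sign that the numbers paired the libraries. With 2 libraries a group this cannot show that they were unpaired.

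Signs turned for these values, none of them called in the main analysis. With library size alone Dnmt1 had 0.10 at 3 h and 0.29 at 6 h, Uhrf1 0.14 at 3 h, Dnmt3a 0.18 and Tet1 0.084 at 6 h, and Dnmt3l 0.054 between 6 h and 3 h. For Uhrf1 at 6 h the value was -0.017 both with DESeq2 size factors and with DESeq2, -0.0014 with 4 libraries, and -0.042 after thinning. Leaving out 1 library gave ranges of -0.067 to 0.071 for Uhrf1, -0.18 to 0.028 for Dnmt1, -0.0025 to 0.067 for Dnmt3l and -0.51 to 0.019 for Tet1 at 6 h, -0.16 to 0.37 for Tet1 and -0.17 to 0.19 for Tet2 at 3 h, and -0.050 to 0.16 for Dnmt1 between 6 h and 3 h. The same alternatives were run for the named partner genes after the data had been seen, and none changed sign. The cause of the sign changes was not tested. Tet3 had the fewest counts of the members, with 177 in the smallest library. Its log2 fold change at 6 h against control was -0.38 after thinning and -0.40 in the main fit.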

Other observations

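Genes with promoters known to be silenced by DNA methylation in somatic and pluripotent cells, mostly germline genes, were low in every group, with a highest mean of 14.0 CPM (Sycp3 at 6 h). Of the 11 tested, 0 were called at either time against control or between the times (edgeR, adjusted p under 0.05), beside 4.90% of all genes at 3 h, 29.0% at 6 h and 1.64% between the times. Their median log2 fold change was 0.15 at 3 h and 0.46 at 6 h, beside 0.02 and 0.04 over all genes. Between 6 h and 3 h it was 0.84, beside 0.01. The median over all genes at 6 h against control was 0.01 under a filter of 5 CPM and 0.16 without a filter. It is thus no matched reference for genes at such low levels. The SE of the 11 genes at 6 h against control ran from 0.23 (Sycp3) to 0.75 (Tdrd1), beside a median of 0.23 over all genes. At such low levels the lack of calls does not show that these genes were unchanged. Dazl, an RNA-binding protein of germ cells picked here as a familiar example after its values were seen, stood at 3.66 CPM in control and 4.98 CPM at 6 h.

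Of 5 tested formative epiblast genes, which are known to rise as embryonic stem cells leave the naive state together with Dnmt3a and Dnmt3b, 4 rose and 1 fell at 6 h, beside 14.8% of all genes called higher and 14.3% lower. Sox3 increased by 2.29 on the log2 scale (edgeR adjusted p = 0.00354) and Zic2 by 2.42 (edgeR adjusted p = 0.00506), while Pou3f1 fell by 1.55 (edgeR adjusted p = 0.00504). At 3 h 1 of the 5 was called, beside 3.60% of all genes called higher. It was Otx2, named here for that call, which rose by 2.51 at 3 h (edgeR adjusted p = 0.037). At 6 h its rise was 2.84 (edgeR adjusted p = 0.00605), from 12 and 2 counts in the controls to 155 and 100. Otx2 passed the low-count filter only through the treated libraries, where it was high, and was picked for its call. Its p-values are thus no independent support, and alternatives were not run for it. Fgf5 did not pass the low-count filter. Of 25 tested S-phase replication genes, 4 rose and 1 fell at 6 h, beside 29.0% of all genes called. Cdt1, which licenses origins, rose by 0.53 at 3 h (edgeR adjusted p = 0.0235) and 0.48 at 6 h (edgeR adjusted p = 0.00899), Cdc6 by 0.60 at 6 h (edgeR adjusted p = 0.00893), and Mcm10 by 0.71 at 6 h (edgeR adjusted p = 0.0219). The calls of Cdt1, Cdc6 and Mcm10 at 6 h were lost without either 6 h library (0.46 to 0.75), and that of Mcm10 also without control replicate 1 (0.44). That of Cdt1 at 3 h was lost without any 1 library but control replicate 1 (0.50 to 0.55). It was also lost with only the 4 libraries compared (0.54, edgeR adjusted p = 0.0556). The calls of Sox3, Zic2 and Pou3f1 held under every alternative tried, but their sizes moved with the controls. Without control replicate 1 they were 1.72, 3.67 and -0.99, and without control replicate 2 they were 3.00, 1.86 and -1.93.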
